A study of Glycine max with 9 samples.

Results

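Of the 33683 transcribed regions longer than 200 bp that the deposited table of developing soybean seeds holds, 242 were expressed in at most 4 of 9 lines and listed at 0 in the other 5 or more, which is 0.718% of these regions. These 242 members were chosen by their Z-scores: in each of them, 5 or more of the 9 lines shared the lowest Z-score of the region within a tolerance of 1e-06. The table holds 33779 regions in all, and another 43 met the same condition over a span of 200 bp or less and are not members. The members were therefore selected on the very values described here, with 1 library per line, and no test between lines was made.

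RNA was sequenced from whole seeds at stage S6 of maturation, harvested from plants kept in growth chambers. The 9 libraries came from FAM94, labelled for high stearic acid (FAM94-41 in the study's text), Jack, with oil close to that of commodity soybean, M23, with mid oleic acid, N0304-303-3, with low palmitic, mid oleic and low linolenic acid, the high oil lines R02-6268F, R05-4256, R05-591 and R08-1450, and the high protein line R95-1705. These are breeding lines and cultivars with no treatment, so a difference between them joins the genotype with everything else that set 1 seed sample apart. For reference, 16 abundant regions were looked up that the study's tables name as glycinin, conglycinin, 2S albumin or oleosin. Their mean levels lay between 799 and 33706 FPKM (fragments per kilobase of transcript, scaled to the mapped fragments of the library), and all 16 had a single line at the lowest Z-score. They were taken from the most abundant regions, and a mean over 9 lines does not show the seed identity of any single library.

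At mid-maturation the soybean embryo fills its cells with storage protein and with oil, and transcripts of these few gene families dominate its RNA. Beside them stand many weakly transcribed regions. In crop plants, lines of 1 species can differ in whether such a region is transcribed at all, as a gene may be missing from a genome, carry a changed promoter, or lie beside a mobile element. An RNA table read against the genome of a single cultivar, here Williams 82, gives the level but does not separate these cases.

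A Z-score in this table is the distance of a line from the mean of the 9 lines on the log2(FPKM + 1) scale, in units of the standard deviation over the lines. Because the lowest level was taken as 0 in every member, the deposited mean FPKM fixed the level of each line. The regions at 0 included members named as ribosomal proteins, so that a line is called listed at 0, and not silent. Every member had a mean of at least 0.5 FPKM, since the authors kept other regions only where all 9 lines expressed them. A region transcribed in 1 line was thus held in the table only from 4.5 FPKM in that line, and weaker ones were not analysed here. The table holds no fragment counts. The study lists aligned reads per line, but fragments behind each level were not estimated from them, and no counting error is given. A low level can rest on very few fragments, so a line with such a level counts as expressing a member on little evidence. The sets of expressing lines carry this limit. Regions carry the identifiers of the deposited table, and positions refer to the Williams 82 assembly the authors used. The authors aligned reads with the Gmax_189 gene models as a guide, then assembled and merged transcripts. A region is therefore not always an annotated gene.

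Most members were expressed in more than 1 line. Of the 242 members, 95 had 4 expressing lines, 57 had 3, 60 had 2 and 30 had a single one. The median level in the expressing lines was 1.42 FPKM for the 95 members of 4 lines and 1.09 FPKM for the 103 regions just outside this limit, listed at 0 in 4 lines. At the other limit of the rule, the shortest members spanned 208 bp (XLOC_052104, with 20.3 FPKM in FAM94) and 213 bp (XLOC_030262, highest in N0304-303-3 with 3.34 FPKM). The regions just outside spanned 195 bp (XLOC_028194, highest in R08-1450 with 24.1 FPKM) and 196 bp (XLOC_045250, highest in Jack with 2.39 FPKM).

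The lines differed in how many members they expressed. R08-1450 expressed 99 of the 242 members, followed by R05-591 with 86, M23 with 83, R02-6268F with 80, Jack with 79, R95-1705 with 75, N0304-303-3 with 71, R05-4256 with 65 and FAM94 with 63. This order rests in part on low levels. Counted from 1 FPKM, R08-1450 had 77 members, Jack and R05-591 61 each, R95-1705 55 and M23 53. FAM94 then had 45, R02-6268F 43, R05-4256 42 and N0304-303-3 37. R08-1450 also held the highest level of 57 members and was the single expressing line of 9. Jack was the single line of 6 members, M23 of 4, FAM94 and R02-6268F of 3 each, R05-4256 and R05-591 of 2 each, and N0304-303-3 of 1. R95-1705, the high protein line, was the single line of 0 members and held the highest level of 17. Over all regions longer than 200 bp, 8008 had a Z-score of 2 or more in size in some line, and R08-1450 was that line in 3348 of them, so the library of R08-1450 stood apart outside the members as well. Without R08-1450, 233 of the 242 members still had an expressing line. How far depth sets these counts was not tested.

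**Figure D1:**
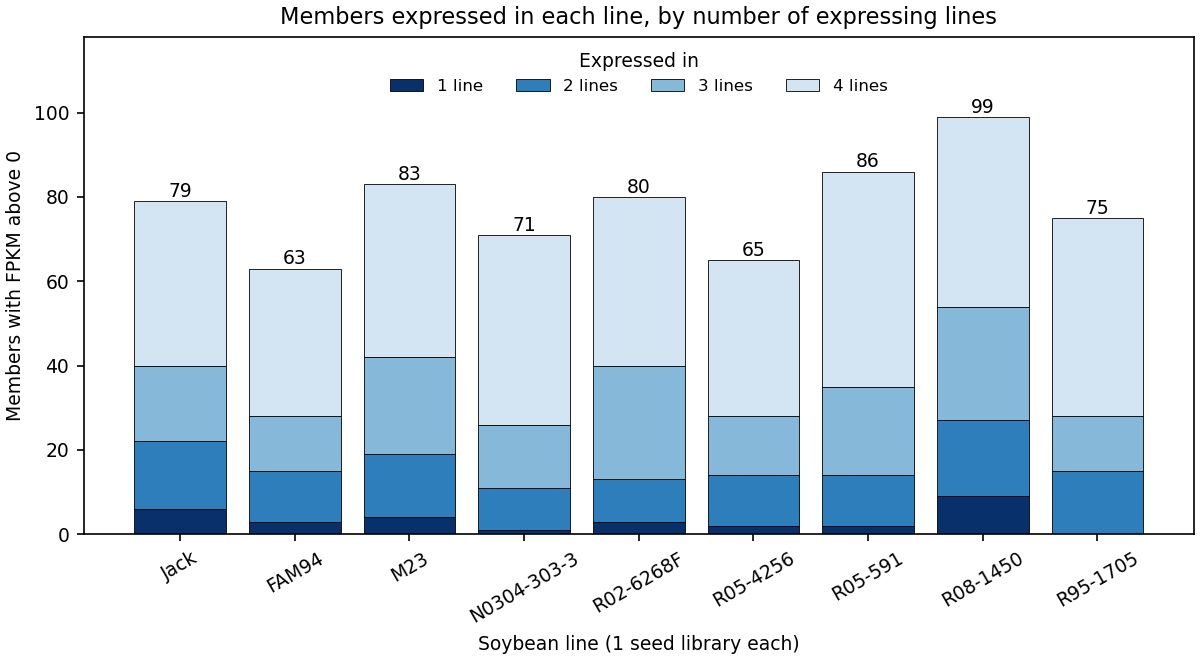
Number of members with an FPKM above 0 (vertical axis) in each soybean line (horizontal axis, 1 library each), with bars split by the number of lines that express the member. R08-1450 stands highest with 99 members and FAM94 lowest with 63, and most members of each bar are shared with other lines.

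Most members were weakly transcribed. Over the 701 line values above 0, the median was 1.98 FPKM, with quartiles of 0.646 and 4.50 FPKM, and 227 values (32.4%) were under 1 FPKM. Only 53 values reached 10 FPKM, in 45 members. The median of the mean FPKM was 0.773 in the members and 3.52 in all regions longer than 200 bp, and 158 members (65.3%) had a mean under 1 FPKM. Together the members held 0.0447% of the summed mean FPKM of the table. By the rule, each member's mean includes 0 in at least 5 of 9 lines. This lowers the means and the summed share of the members by construction. At the low end, 28 values lay under 0.1 FPKM, and 4 values in 3 members lay under 0.001 FPKM, which the tolerance of the rule still counts as expressed.

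The median level in the expressing lines was 6.20 FPKM for members of 1 line, 3.88 FPKM for members of 2 lines, 1.93 FPKM for members of 3 lines and 1.42 FPKM for members of 4 lines. The limit on the mean shapes this order, since the lowest single-line member had 4.50 FPKM while the weakest member of 4 lines reached only 1.33 FPKM in its highest line. The highest line of each member had a median of 6.20, 5.22, 4.55 and 4.39 FPKM for members of 1, 2, 3 and 4 lines.

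Within a member, 1 line often led. Among the 212 members of 2 to 4 lines, the highest line held a median of 61.9% of the summed FPKM, and in 38 members (17.9%) it held over 90%. Members of 2 lines had a median ratio of 5.39 between the highest and the lowest expressing line, against 10.7 for 3 lines and 9.81 for 4 lines. Levels within 1.5-fold in all expressing lines were seen in 10 members of 2 lines, 4 of 3 lines and 3 of 4 lines. When a line was counted from 1 FPKM, 98 members had 1 such line, 78 had 2, 44 had 3 and 22 had 4.

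The highest level belonged to XLOC_049748 on chromosome 19 (5947892 to 5948119, 227 bp), with 279 FPKM in FAM94, 38.0 FPKM in M23 and 0 in the other 7 lines. It is one of the shortest members. XLOC_031957 on chromosome 12 (39216657 to 39219770) had 93.1 FPKM in R02-6268F and 26.6 FPKM in N0304-303-3. Its span is also given to a second region, whose mean was 1.09 FPKM. XLOC_020159 on chromosome 8 (22580142 to 22580682) had 75.9 FPKM in R05-591 and 3.66 FPKM in FAM94.

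A pair of members on chromosome 8 shared the span from 12330333 to 12332102 and the same leading line. XLOC_021490 had 59.1 FPKM in R02-6268F and 0.818 FPKM in R05-591, and XLOC_019648 had 27.0 FPKM in R02-6268F, 0.0635 FPKM in Jack and 0.0622 FPKM in R05-4256. R02-6268F was thus the only line above 1 FPKM in both. Among the 10 highest members, R05-591 also led in 2 members of 4 lines. XLOC_014316 on chromosome 6 (45707319 to 45707541) had 40.5 FPKM in R05-591, 3.06 FPKM in R05-4256, 1.41 FPKM in M23 and 1.09 FPKM in FAM94. XLOC_049439 on chromosome 18 (61292118 to 61292678) had 28.9 FPKM in R05-591, 1.38 FPKM in M23, 0.833 FPKM in R02-6268F and 0.471 FPKM in R95-1705.

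Other members were high in several lines. XLOC_016564 on chromosome 7 (7466198 to 7466429) had 30.6 FPKM in Jack, 26.0 FPKM in FAM94, 18.2 FPKM in N0304-303-3 and 1.24 FPKM in M23. XLOC_031889 on chromosome 12 (37847519 to 37847820) had 25.7 FPKM in N0304-303-3, 9.41 FPKM in R08-1450, 3.42 FPKM in FAM94 and 0.623 FPKM in M23. M23 was the lowest expressing line in both.

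**Figure D2:**
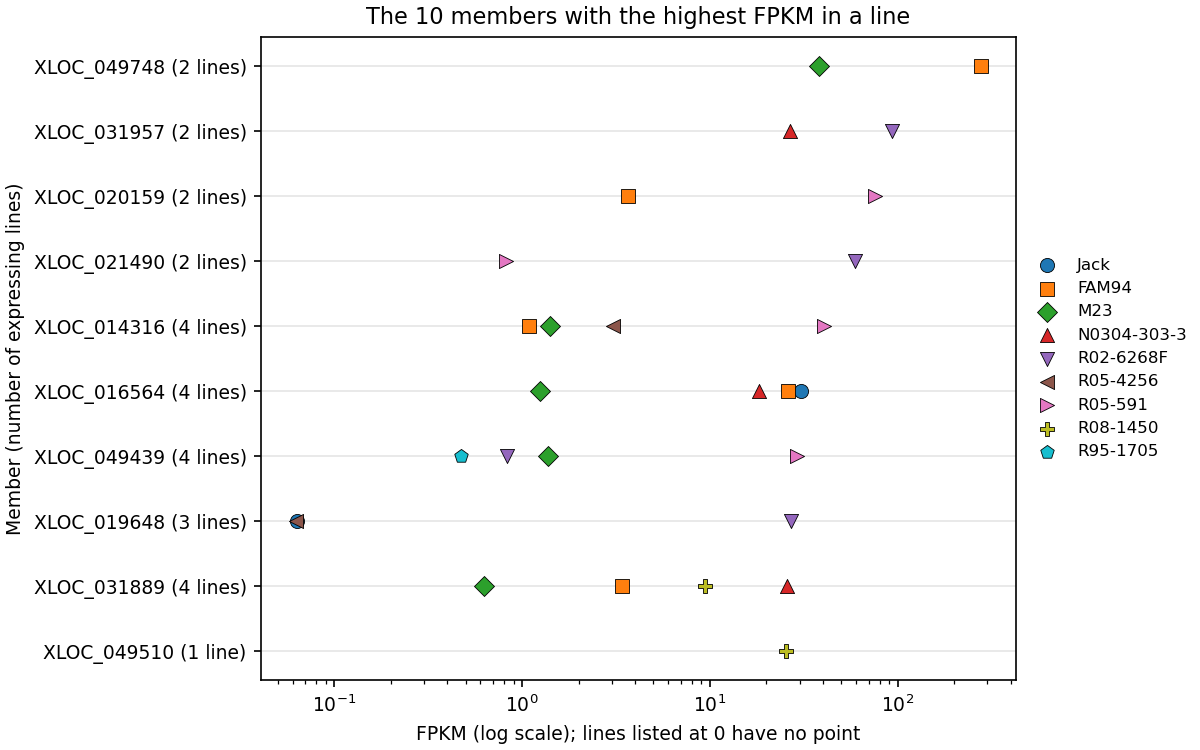
FPKM (horizontal axis, log scale) of the 10 members with the highest level in any line, 1 row per member and 1 marker per expressing line; lines listed at 0 have no marker. XLOC_049748 reaches 279 FPKM in FAM94, while the last of them, XLOC_049510, has 25.3 FPKM in R08-1450 alone.

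Members of a single line reached a maximum of 25.3 FPKM, in XLOC_049510 of R08-1450. The strongest single-line member of FAM94 was XLOC_052104 with 20.3 FPKM, and that of R05-4256 was XLOC_033357 on chromosome 13 (6514749 to 6515096) with 16.9 FPKM. These 3 were each listed at 0 in the other 8 lines. In R05-591 the strongest was XLOC_031759 with 8.80 FPKM, in Jack XLOC_041733 with 8.05 FPKM, in N0304-303-3 XLOC_027754 with 6.65 FPKM, in M23 XLOC_049503 with 5.86 FPKM and in R02-6268F XLOC_038644 with 5.66 FPKM. XLOC_027754 (chromosome 10, 44064735 to 44077667) lies on the same span as a region with a mean of 10214 FPKM.

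Of the 255 sets of 1 to 4 lines that are possible, 132 were found, and 78 of these were found in 1 member only. The most frequent set was R08-1450 alone with 9 members, 5 of which lie in 1 cluster on chromosome 18. FAM94 with M23 followed with 8 members. Jack alone, R08-1450 with R95-1705, and FAM94, M23, N0304-303-3 and R08-1450 together had 6 members each. Jack with R95-1705, R05-4256, R05-591, R08-1450 and R95-1705 together, and N0304-303-3, R05-4256, R05-591 and R95-1705 together had 5 each. The last of these sets was found on chromosome 15 only.

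The 8 members of FAM94 and M23 were mostly low in M23. In 6 of them FAM94 had between 3.26 and 5.51 FPKM and M23 between 0.438 and 2.14 FPKM. XLOC_049748 had far more RNA in both lines, as given above. XLOC_014152 on chromosome 6 had the other order, with 4.78 FPKM in M23 and 0.108 FPKM in FAM94. The strongest member of R08-1450 and R95-1705 was XLOC_008043 on chromosome 3, with 8.93 FPKM in R08-1450 and 2.94 FPKM in R95-1705. The strongest of Jack and R95-1705 was XLOC_043900 on chromosome 16 (14704311 to 14705516), with 5.77 FPKM in R95-1705 and 2.05 FPKM in Jack. For N0304-303-3, R05-4256, R05-591 and R95-1705 it was XLOC_040144 on chromosome 15 (35884430 to 35887104), with 13.5 FPKM in N0304-303-3, 9.35 FPKM in R95-1705, 6.98 FPKM in R05-4256 and 0.584 FPKM in R05-591. In XLOC_025215 on chromosome 9 (9643450 to 9643691) the levels were 7.23 FPKM in R05-4256, 8.98 FPKM in R05-591, 1.65 FPKM in R08-1450 and 2.27 FPKM in R95-1705.

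R05-4256 and R05-591 shared the most members of any pair of lines. They had 40 members in common, which is 61.5% of the members of R05-4256 and 46.5% of those of R05-591, or a share of 0.36 of the members expressed in either line. R08-1450 followed with 34 members in common with R95-1705 and 34 with R02-6268F, at shares of 0.24 and 0.23. FAM94 and M23 had 33 common members (52.4% of FAM94, 39.8% of M23), and their share of 0.29 was the next highest after that of R05-4256 and R05-591. R05-591 and R95-1705 had 33 in common, with a share of 0.26. The smallest overlap was that of FAM94 with R05-4256, at 7 members (11.1% of FAM94, 10.8% of R05-4256, a share of 0.06), and the median over the 36 pairs was 23 members with a share of 0.16. These are descriptions, and the 36 pairs share their lines.

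Of all regions longer than 200 bp, 836 (2.48%) were listed at 0 in 2 or more lines. The 594 of these at 0 in 2 to 4 lines lie outside the rule and allow the same pairs to be compared. There, the share counts the regions at 0 in both lines among those at 0 in either. R05-4256 and R05-591 again had the highest share of the 36 pairs, at 0.24 against a median of 0.12. FAM94 with N0304-303-3 had rank 4 by the share of members, at 0.25, and rank 2 by the share of zeros, at 0.24. FAM94 with M23 had rank 2 by the share of members and rank 9 by the share of zeros, at 0.16. R05-591 with R95-1705 had rank 3 by the share of members and rank 32 by the share of zeros, at 0.09. The order of the pairs was thus kept for the first pair but not in general.

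**Figure D3:**
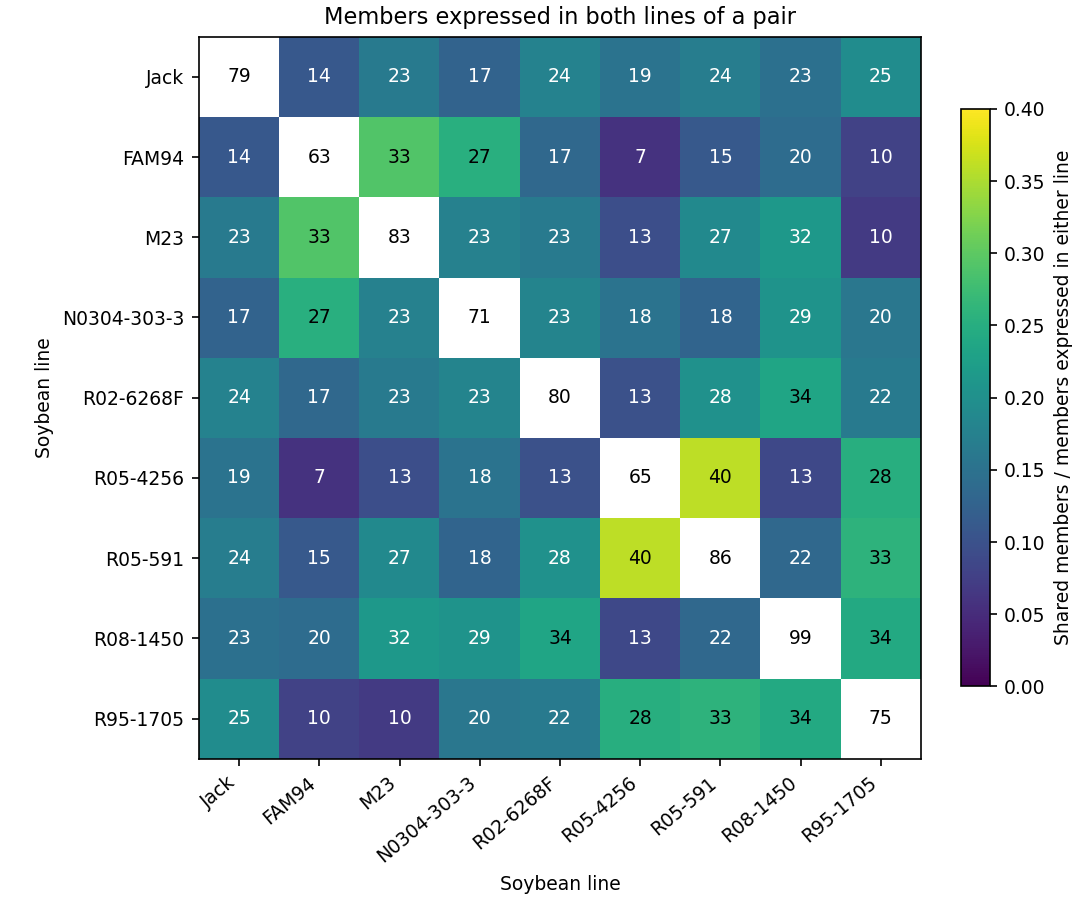
Number of members expressed in both lines of a pair (figures in the cells) and members expressed in each line (diagonal, uncoloured), with both axes listing the 9 lines and the colour giving the shared members over those expressed in either line. R05-4256 with R05-591 is the brightest pair with 40 shared members, and FAM94 with R05-4256 the darkest with 7.

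Members were short regions. Their median span was 800 bp, against 4135 bp for all regions longer than 200 bp, and 137 members (56.6%) spanned 1000 bp or less, against 5.17% of all. Single-line members had a median span of 423 bp, members of 2 lines 742 bp, of 3 lines 1059 bp and of 4 lines 830 bp. The 32 members up to 300 bp had a median highest level of 7.47 FPKM, and the 64 members over 2000 bp one of 4.71 FPKM. FPKM divides by transcript length, so a given number of fragments yields a higher value in a short region, and its part in the levels of the short members was not tested.

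The 3 longest members were spread over several lines at low levels. XLOC_014503 on chromosome 6 (49360168 to 49383270, 23102 bp) had 2.02 FPKM in R08-1450, 1.79 FPKM in R02-6268F, 0.615 FPKM in N0304-303-3 and 0.417 FPKM in Jack. XLOC_041438 on chromosome 15 (35863922 to 35882631) had 4.39 FPKM in R05-4256, 3.39 FPKM in R95-1705, 3.09 FPKM in R05-591 and 2.88 FPKM in N0304-303-3. XLOC_008021 on chromosome 3 (4513696 to 4532229) had 4.90 FPKM in R08-1450 and 0.844 FPKM in N0304-303-3. Of these, XLOC_041438 was the most even between its lines.

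A shared span was found in 30 members (12.4%), against 5.63% of all regions longer than 200 bp. In 28 of the 30, another region with exactly the same start and end had a higher mean. The median of the mean FPKM was 0.765 for the 30 members and 7.71 for the highest region on each of their spans. The rule lowers the mean of a member, and the highest region was taken for comparison, so both choices favour this order. The span gives no strand or exon, and whether the members with a shared span are variants of the stronger region cannot be told from the table.

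Members were found on all 20 chromosomes, between 6 on chromosome 5 and 26 on chromosome 18, and 3 lay on unplaced scaffolds. They made up 1.58% of the regions longer than 200 bp on chromosome 18 and 1.13% of those on chromosome 19, against 0.371% on chromosome 5. On chromosome 18, 13 of 26 members were expressed in R08-1450, and 6 of these lay within 6.40 kb. On chromosome 19, 14 of the 18 members were expressed in FAM94 and 11 had their highest level there, while R05-591 expressed 0 of the 18. Both FAM94 counts include 7 members that lay within 11.0 kb. Members on chromosome 3 were expressed in R08-1450 in 11 of 14 cases, of which 4 lay within 6.90 kb. Those on chromosome 15 were expressed in N0304-303-3 and R05-591 in 9 of 15 cases each.

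When each chromosome was cut into 5 parts of equal length, taking the end of its last region as its end, the members lay farther from the ends than the other regions. The first to the last part held 21.8%, 21.3%, 12.6%, 25.9% and 18.4% of the 239 members on chromosomes. For all regions longer than 200 bp these shares were 34.0%, 13.5%, 6.20%, 11.7% and 34.6%. The middle of a soybean chromosome is poor in genes, as it commonly holds the repeat-rich DNA around the centromere. The 30 members of the middle part included XLOC_020159, which had 75.9 FPKM in R05-591, and XLOC_003206, named as a ribosomal protein.

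Members lay close to each other. In 89 members (36.8%) another member lay within 100 kb, against 5.07% of all regions longer than 200 bp. These 89 formed 37 clusters, in which neighbouring members are at most 100 kb apart, of 2 to 7 members. The median cluster was 8.66 kb long and 19 were under 10 kb. Some members lay nearly end to end, and whether such members are pieces of a single transcribed stretch was not tested. In 35 of the 37 clusters at least 1 line expressed all members, and in 11 clusters, all of 2 members, the set of lines was identical. Of the 37 clusters, 31 had only 2 members. A common line was also usual far apart: 249 (28.9%) of 863 pairs of members over 10 Mb apart had no line in common. When the members expressed in R08-1450 were left out, 43 members were clustered.

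The largest cluster, 7 members on chromosome 19 between 9290103 and 9301099, was led by FAM94. XLOC_052104 had 20.3 FPKM in FAM94, XLOC_052100 had 11.9 FPKM and XLOC_052098 had 6.55 FPKM, all 3 at 0 in the other 8 lines. XLOC_052101 had 11.3 FPKM in FAM94 and 2.36 FPKM in N0304-303-3, and XLOC_052099 had 4.21 FPKM in FAM94 and 0.486 FPKM in M23. FAM94 was thus the only line in which all 7 were above 0. Some of the 7 lay nearly end to end, as XLOC_052098 ended at 9293482 and XLOC_052099 began at 9293548.

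The longest members of this cluster had RNA in 3 further lines each. XLOC_049826 (1938 bp) had 8.14 FPKM in FAM94, 0.280 FPKM in N0304-303-3, 0.252 FPKM in M23 and 0.189 FPKM in R08-1450. XLOC_049825 (1722 bp) had 5.56 FPKM in FAM94, 0.478 FPKM in R08-1450, 0.380 FPKM in M23 and 0.0605 FPKM in N0304-303-3. No other region of the table lay within the cluster or 20 kb on either side.

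The 6 members on chromosome 18 between 22254027 and 22260428 were led by R08-1450 in the same way. Most of them lay nearly end to end. XLOC_049508 ended at 22254407, XLOC_049509 ran from 22254577 to 22254852, and XLOC_047258 began at 22254967. Whether they are separate genes was not tested. XLOC_049510 had 25.3 FPKM in R08-1450, XLOC_049512 had 23.6 FPKM, XLOC_049509 had 19.7 FPKM, XLOC_049511 had 19.5 FPKM and XLOC_049508 had 6.52 FPKM, each at 0 in the other 8 lines. The remaining member, XLOC_047258 (1271 bp), had 7.63 FPKM in R08-1450, 1.69 FPKM in FAM94 and 0.123 FPKM in Jack. It was the longest member of the cluster and the only one with RNA in further lines.

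On chromosome 3 between 31683795 and 31690693, 4 members were expressed in R08-1450 and R95-1705, with R08-1450 the higher in each. XLOC_007235 had 12.9 FPKM in R08-1450, 6.27 FPKM in R95-1705 and 4.27 FPKM in R02-6268F. XLOC_008043 had the levels given above, XLOC_008040 had 4.79 FPKM in R08-1450 and 1.44 FPKM in R95-1705, and XLOC_008041 had 3.66 FPKM in R08-1450, 1.30 FPKM in R95-1705 and 0.951 FPKM in R02-6268F. A region of 172 bp in the same stretch, XLOC_008042, is too short for the rule and had 49.4 FPKM in R08-1450 and 8.59 FPKM in R95-1705.

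The 4 members on chromosome 11 between 26929149 and 26979623 were of nearly equal span, from 2206 to 2249 bp. R05-591 was the highest line in all 4, with 7.43 FPKM in XLOC_030450, 4.46 FPKM in XLOC_030451, 4.68 FPKM in XLOC_030452 and 10.6 FPKM in XLOC_030453. R02-6268F had 0.268, 0.150 and 0.721 FPKM in the first 3 of these and 0 in XLOC_030453. R05-4256 had 0.292 FPKM in XLOC_030451 and 0.563 FPKM in XLOC_030452, whereas XLOC_030453 had 0.512 FPKM in M23, 0.307 FPKM in Jack and 0.202 FPKM in FAM94. The 4 members thus had 1 leading line in common and differed in their weaker lines.

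**Figure D4:**
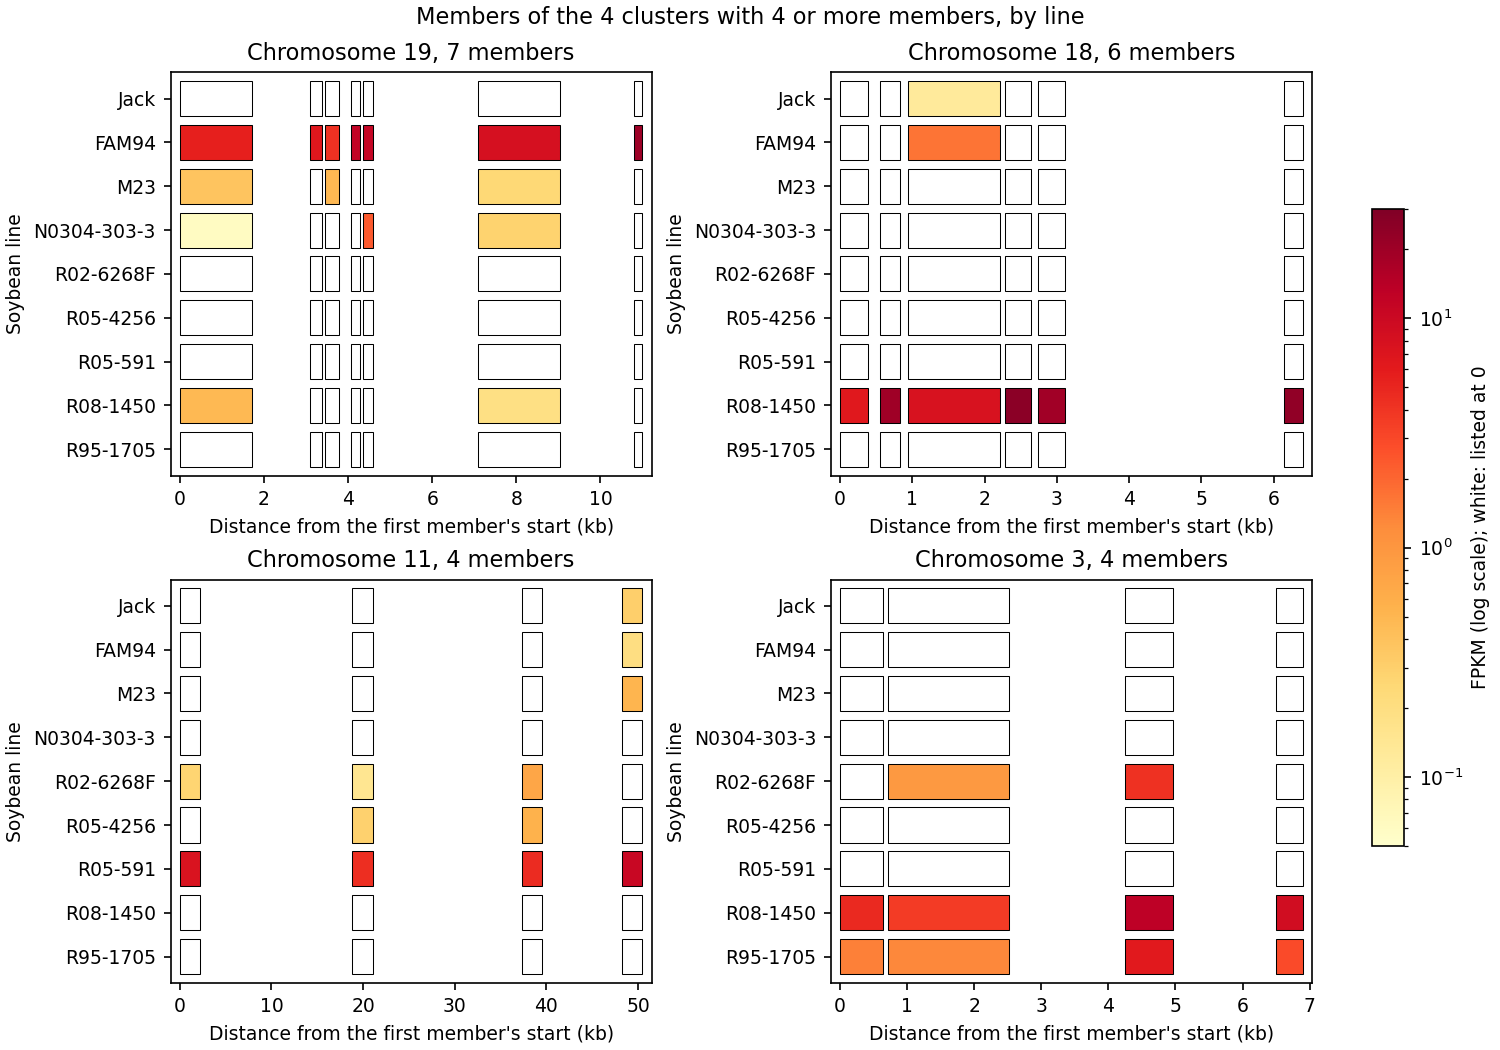
Members of the 4 clusters with 4 or more members, drawn to scale along the chromosome (horizontal axis, distance in kb from the start of the first member), with 1 row per line and the colour giving FPKM on a log scale (white, listed at 0). FAM94 on chromosome 19, R08-1450 on chromosomes 18 and 3 and R05-591 on chromosome 11 are coloured in every member of the cluster.

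Clusters of 3 members were found on chromosomes 14 and 6. On chromosome 14 the 3 members shared 1 span (39327168 to 39339511) with 3 further regions, the highest of which had a mean of 12.7 FPKM. XLOC_039043 had 11.1 FPKM in R02-6268F and 6.93 FPKM in R08-1450. XLOC_039044 had 5.01 FPKM in R08-1450, 3.17 FPKM in M23 and 3.05 FPKM in R02-6268F, and XLOC_039045 had 4.99 FPKM in R08-1450, 2.54 FPKM in R02-6268F, 0.701 FPKM in Jack and 0.601 FPKM in M23. R02-6268F and R08-1450 expressed all 3.

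The cluster on chromosome 6 joined 2 neighbours with a more distant member. XLOC_016148 (39719977 to 39720680) had 6.55 FPKM in R08-1450 alone, and XLOC_014157 next to it had 5.43 FPKM in R08-1450 and 0.179 FPKM in M23. XLOC_014161 (39819568 to 39821049) had 11.2 FPKM in Jack, 0.0878 FPKM in R02-6268F, 0.0874 FPKM in R05-4256 and 0.0551 FPKM in R08-1450. R08-1450 led the neighbours and Jack the distant member.

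Members up to 100 kb apart shared their lines more often than members farther apart. Of the 62 pairs of members with a gap of up to 10 kb, 56 (90.3%) had their highest level in the same line and 25 (40.3%) had identical sets of lines. At 10 to 100 kb these were 9 (50.0%) and 3 (16.7%) of 18 pairs. At 100 kb to 1 Mb they were 4 (7.27%) and 2 (3.64%) of 55 pairs, at 1 to 10 Mb 76 (14.4%) and 15 (2.85%) of 527 pairs, and beyond 10 Mb 143 (16.6%) and 18 (2.09%) of 863 pairs. Of the 4 pairs with the same span, 2 had the same highest line and 0 had identical sets. The clusters of 7 and 6 members gave 36 of the 62 nearest pairs. Without them, 20 (76.9%) of 26 pairs had the same highest line and 11 (42.3%) had identical sets. Pairs with a common member are not independent, and no test was made. Any pieces of a single transcribed stretch would count here as pairs of members.

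**Figure D5:**
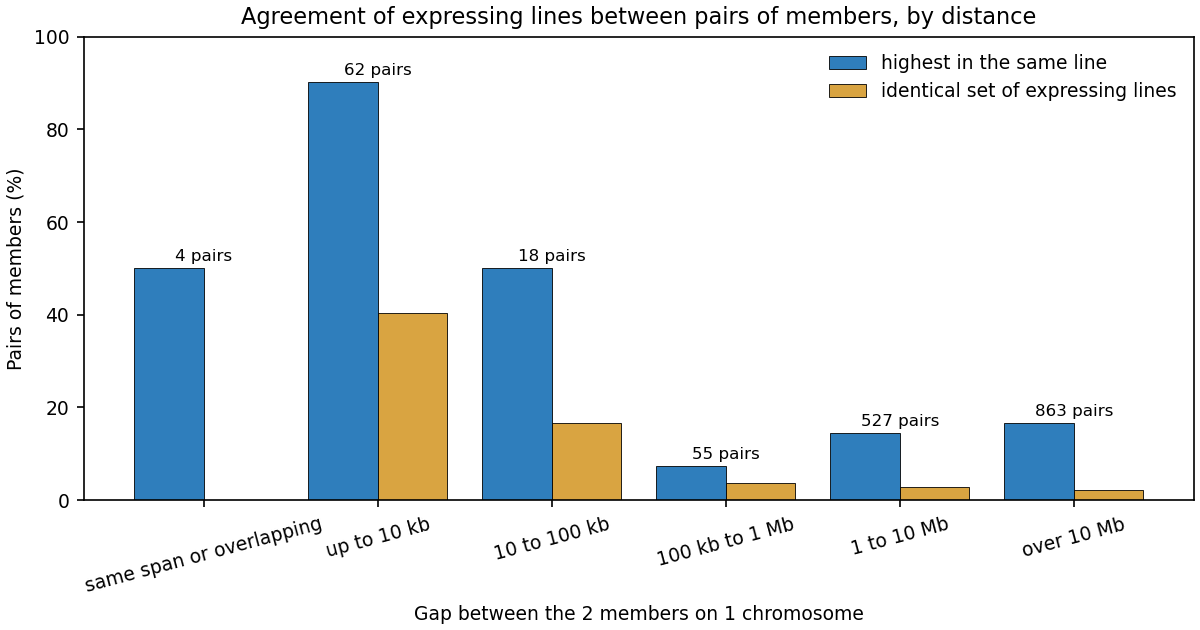
Share of pairs of members on 1 chromosome (vertical axis, percent) that have their highest FPKM in the same line (left bars) or an identical set of expressing lines (right bars), by the gap between the members (horizontal axis). Up to 10 kb 90.3% of 62 pairs share the highest line, against 16.6% of 863 pairs beyond 10 Mb.

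Neighbouring regions that are no members were compared through their Z-scores. For the nearest such region on either side, the mean Z-score in the lines that express the member minus that in the other lines had a median of 0.06 over 478 neighbours, with a standard deviation of 0.88. It was above 0 in 249 of them (52.1%). Neighbours were counted for each member and side, so a region beside several clustered members entered more than once. The neighbours counted here are thus not all separate regions. For the neighbour 10 places away in gene order the median was -0.04 over 477 neighbours, with 49.3% above 0. Differences over 1 were seen for 81 nearest neighbours (16.9%) and for 48 of those 50 places away (10.1%). The 24 neighbours within 1 kb had a median of 0.32, with 16 above 0, and the 147 at 1 to 10 kb had a median of -0.03, with 73 above 0.

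Names could be given to few members. The study's gene tables, as far as used here, cover chromosomes 1 to 5 and part of 6, and held 29 of the 242 members. They list genes past the study's Z-score cutoff of 2. Members in which no line stood out that far could not be named, so the named members are not a sample of all. Of the 29 members held, 15 had a gene model and 9 a description. The study counts nearly all of the genes it found as annotated gene models. The share with a gene model among all genes in these lists was not taken here. The descriptions were of ribosomal proteins (2 members), cell wall and secreted proteins (2) and metabolic enzymes (2). The others were of a phosphatase, a protein with a DNA-binding domain and a splicing factor family. These 9 descriptions were not compared with those of other regions. The other 227 members are known here by their region only.

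Both members named as ribosomal proteins were low. XLOC_008624 (Glyma04g14430, a protein SA of the small ribosomal subunit; chromosome 4, 14527020 to 14528789) had 6.0 FPKM in Jack and 0 in the other 8 lines. XLOC_003206 (Glyma02g28612, L6 family, of the large subunit; chromosome 2, 29844455 to 29846799) had 5.98 FPKM in R08-1450, 0.530 FPKM in R02-6268F and 0.165 FPKM in N0304-303-3. Ribosomal proteins are commonly encoded by several gene copies in plants.

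Expansins loosen the cell wall during growth. XLOC_005606 (Glyma03g04390, named expansin A2; chromosome 3, 4508249 to 4511927) had 13.4 FPKM in R05-591, 0.197 FPKM in R95-1705, 0.118 FPKM in Jack and 0.0971 FPKM in M23. XLOC_008811 (Glyma04g32745, named glucuronidase 2, an enzyme that removes glucuronic acid from sugar chains) had 3.14 FPKM in Jack, 1.07 FPKM in R02-6268F and 0.994 FPKM in FAM94, on a span shared with a stronger region. The expansin was close to a single-line gene, and the glucuronidase was spread over 3 lines.

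Nicotianamine synthase makes nicotianamine, a chelator that carries iron and other metals in plants. XLOC_007843 (Glyma03g39050, named nicotianamine synthase 3; chromosome 3, 45279742 to 45281178) had 8.72 FPKM in R08-1450, 0.0741 FPKM in N0304-303-3 and 0.0530 FPKM in R05-591. XLOC_005340 (Glyma02g47011, an adenylyltransferase that forms NAD from its mononucleotide precursor; chromosome 2, 50768263 to 50770422) had 3.92 FPKM in R05-591, 1.06 FPKM in M23, 0.837 FPKM in FAM94 and 0.644 FPKM in R02-6268F. R08-1450 led the first by far, while the second was within an order of magnitude in its lines.

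On chromosome 3, 2 named members within 100 kb were expressed in Jack and R08-1450 alone. XLOC_005650 (Glyma03g05650, protein phosphatase 2C family, enzymes that remove phosphate from serine and threonine; 5984322 to 5988698) had 3.78 FPKM in R08-1450 and 1.31 FPKM in Jack. XLOC_005655 (Glyma03g05744, DDT domain superfamily, a DNA-binding domain of chromatin proteins; 6051892 to 6063501) had 6.24 FPKM in Jack and 3.84 FPKM in R08-1450. The order of the lines was thus reversed between the neighbours, and the 3 other regions of the table between them were not members. XLOC_001584 (Glyma01g18990, CRM family member 2, of a family that in Arabidopsis and maize helps to splice chloroplast introns; chromosome 1, 23424891 to 23425203) had 24.3 FPKM in Jack and 0.576 FPKM in M23.

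Among the clusters of 2 members with an identical set of lines, the levels of the members were alike in some. XLOC_025214 on chromosome 9 had 6.26 FPKM in R05-4256, 7.19 FPKM in R05-591, 3.61 FPKM in R08-1450 and 4.12 FPKM in R95-1705, beside the levels of XLOC_025215 given above. XLOC_038645 on chromosome 14 had 4.72 FPKM in R02-6268F alone beside the 5.66 FPKM of XLOC_038644, and XLOC_049504 on chromosome 18 had 5.21 FPKM in M23 alone beside the 5.86 FPKM of XLOC_049503. XLOC_052095, in a cluster of 17.9 kb with XLOC_049748, had 4.96 FPKM in FAM94 and 0.450 FPKM in M23, far below its neighbour. These 4 pairs were singled out after their values were seen.

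Of the 37 clusters, 2 had no line common to all members. On chromosome 15, XLOC_041733 (41831511 to 41831798) had 8.05 FPKM in Jack alone. XLOC_040201, within 10 kb of it, had 3.88 FPKM in R05-4256, 1.73 FPKM in R05-591, 1.4 FPKM in R95-1705 and 1.13 FPKM in N0304-303-3. The other was the pair of XLOC_005606 and XLOC_008021 on chromosome 3, which led in R05-591 and R08-1450.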

How the data were processed

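Total RNA of whole seeds from 9 lines was sequenced by the authors as 100 bp paired-end reads, with 1 library per line. Per the study's methods and the submitters' processing notes, the aligner was TopHat 1.4.0, running Bowtie 0.12.8 against the genome of Williams 82. Reads were cut to 90 bp beforehand, 2 mismatches were allowed, and those with several locations were discarded. The Gmax_189 gene models guided the alignment. Cufflinks 2.1.1 assembled transcripts in each library, Cuffmerge joined them, and Cuffdiff 2.1.1 gave FPKM for the merged regions. The authors deposited 1 mean FPKM per region and a Z-score per line, that is, a score of log2-transformed FPKM over the 9 lines. Of the per-line columns, 0 were left unused.

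FPKM per line was solved from the scores, with 0 in the lines at the lowest score, a constant of 1 added before the logarithm, and the 9 values averaging to the deposited mean. Over 895 regions with 2 or more lines at the lowest score, the ratios between lines fell most often on common values with a constant of 1 (304 of 11589 ratios in windows of 0.004 log2 units, against 288 for 1.1, 284 for 0.9, 215 for 0.5 and 137 for 0.1), so nearby constants were set apart by little. Whole fragments were not recovered. On data simulated with exact zeros and the same formula, 200 of 200 planted members were found. This checks the calculation only, and cannot test whether tied lowest scores are 0 FPKM or whether the constant is 1. Python 3.11.15, NumPy 2.4.6, pandas 2.3.3, SciPy 1.17.1 and Matplotlib 3.10.9 were used.

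No groups of lines were compared. Members and lists were chosen with earlier results of these data known. Named are the 10 highest members, the highest single-line member of each line, members of clusters of 3 or more, members with a description, the 3 longest, the highest of the 5 most frequent sets of several lines (6 sets, as the last places were tied), and the regions at the limits. Descriptions were matched by position and mean. Alternatives were the tolerance, the minimum span, the number of lines at 0, the minimum mean, the constant, the cluster gap and single lines left out. Reference sequences of the genome build were not used here, and no sequence is shown.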

Additional observations from a re-analysis of the deposited data

How the results depend on the processing

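The number of members, 242, was 105 with a minimum span of 1000 bp, 147 with at least 6 lines at 0 and 84 with a mean of at least 1 FPKM. R08-1450 expressed the most members with a minimum span of 500 bp and of 1000 bp (45 members), but R05-591 did under a minimum mean of 1 FPKM (35 members). Under that minimum mean, the median level in expressing lines was 3.46 FPKM. The most frequent set, R08-1450 alone, gave way to N0304-303-3, R05-4256, R05-591 and R95-1705 at 500 bp (5 members) and to R02-6268F with R05-591 at 1000 bp (4 members). Under a minimum mean of 1 FPKM it had 4 members, as did R05-4256, R05-591, R08-1450 and R95-1705. Clustered members, 89, were 53 with a minimum span of 500 bp and 43 without those expressed in R08-1450. Fewer regions enter under these settings, which lowers the counts by construction. It does not fix which line or set comes first, and both changed under some of the settings. Leaving out shared spans, an alternative chosen after the data were seen, gave 212 members, of which 80 were clustered. No other alternative moved a result by over 1.5 times, or, for the neighbours' difference, by over 1 standard deviation. No paired analysis was possible because each line has 1 library. Without counts, depth limits every value to an unknown degree.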
